A study of Rattus norvegicus with 4 samples.

Results

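Transcripts of the colony-stimulating factors (CSFs) and their receptors were followed in NR8383, a continuous line of alveolar macrophages from the rat. The set holds 7 genes of the 16575 that could be named on the array: the ligands Csf1, Csf2 and Csf3 and the receptor chains Csf1r, Csf2ra, Csf2rb and Csf3r. They were chosen by name, as every probe whose accession RefSeq assigns to one of these symbols. In all, 8 probes matched, 2 for Csf1 and 1 for each of the other genes, and each probe had 1 spot per array. The series is 1 group of 4 biological replicates, all labelled as a water (H2O) control for 4 h. Their labels also carry the abbreviation ALI, left here as written because no source explains it. The cells had gone through 20 passages and had been seeded for 48 h in flasks, in medium with fetal bovine serum, and the labels name no added CSF. As a model this is 1 line, grown partly attached and partly floating. With a single condition, the test used here asks only whether a transcript differed between the replicates.

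CSFs are secreted proteins that keep myeloid cells alive and make them divide and mature. CSF1 (M-CSF) binds CSF1R, a receptor tyrosine kinase of monocytes and macrophages. CSF2 (GM-CSF) binds a receptor made of the ligand-binding chain CSF2RA and the signalling chain CSF2RB, which is shared with the receptors for interleukins 3 and 5. CSF3 (G-CSF) binds CSF3R, which is best known from neutrophils and their precursors. In the lung, GM-CSF from epithelial cells is needed for alveolar macrophages to mature and to clear surfactant, through the transcription factors PU.1 and PPARG.

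Of the 7 genes, 4 were detected, namely Csf1r, both GM-CSF receptor chains and Csf3, and the other 3, Csf1, Csf2 and Csf3r, had no usable spot that passed on any array. A gene counted as detected when Agilent's software called at least 1 of its probes well above background on 4 of 4 arrays. By this rule 51% of all 16575 named genes were detected, and 47.3% of the 12918 named genes with 1 probe, so 4 of 7 is near the share for all genes and is no result about the set. Likewise 42.6% of named genes passed on no array, beside 3 of the 7 members. With the software's looser flag (positive and significant) 60.4% of named genes were detected, and 52.4% when 3 of 4 arrays sufficed, with 4 members detected each time. By the well-above-background rule the receptor was detected without its ligand for CSF1 and GM-CSF, and the ligand without its receptor for G-CSF. The looser flag passed Csf2 on 3 of 4 arrays and Csf3r on 2 of 4. It passed the Csf1 probes on 1 of 3 usable arrays and on 2 of 4. An undetected partner was therefore not shown to be absent. Probes differ in how well they bind their target, so signals of different genes are not ranked below. RNA per cell and the share of cells that hold a transcript cannot be told apart in bulk RNA.

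**Figure D1:**
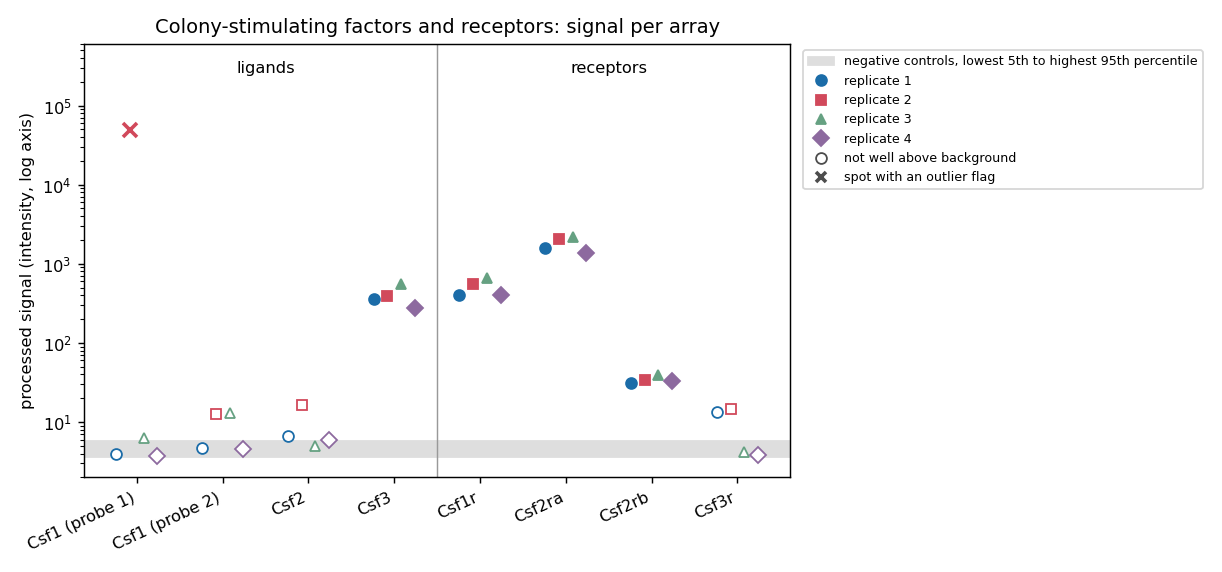
Processed signal (intensity, log axis) of each CSF and receptor probe on the 4 arrays; filled symbols are well above background, open symbols are not, a cross is a spot with an outlier flag, and the grey band spans the negative controls from the lowest 5th to the highest 95th percentile of an array. Csf3, Csf1r, Csf2ra and Csf2rb lie above the band on all 4 arrays, while Csf1, Csf2 and Csf3r lie in it or just above it, apart from the Csf1 spot with a flag at 49070.

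The genome sequence before the gene start is shown for an undetected ligand, a detected receptor chain and the undetected receptor, as examples of both outcomes and not of all 7 members. RefSeq's promoter table for the build GRCr8 held 4 of the 7 members (Csf1r, Csf2, Csf2ra and Csf3r). Capitals mark the core GAGGAA, which PU.1 binds, on either strand. In Csf2 they also mark the CK-1 element GAGATTCC, known from CSF promoters. The other letters are in lower case, and each run is written 5′ to 3′ along the gene's own strand.
Csf2 (chr10:38889734-38889923, minus strand, bases 250 to 61 before the start): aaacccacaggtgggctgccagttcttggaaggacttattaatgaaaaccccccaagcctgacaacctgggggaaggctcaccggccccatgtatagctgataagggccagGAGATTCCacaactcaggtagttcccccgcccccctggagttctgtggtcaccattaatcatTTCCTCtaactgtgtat
Csf2ra (chr14:118118-118367, minus strand, bases 250 to 1 before the start): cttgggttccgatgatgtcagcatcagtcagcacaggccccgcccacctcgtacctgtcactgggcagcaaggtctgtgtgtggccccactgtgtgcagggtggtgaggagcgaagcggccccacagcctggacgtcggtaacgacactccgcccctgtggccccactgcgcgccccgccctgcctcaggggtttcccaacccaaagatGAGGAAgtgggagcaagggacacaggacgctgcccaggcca
Csf3r (chr5:143582970-143583219, plus strand, bases 250 to 1 before the start): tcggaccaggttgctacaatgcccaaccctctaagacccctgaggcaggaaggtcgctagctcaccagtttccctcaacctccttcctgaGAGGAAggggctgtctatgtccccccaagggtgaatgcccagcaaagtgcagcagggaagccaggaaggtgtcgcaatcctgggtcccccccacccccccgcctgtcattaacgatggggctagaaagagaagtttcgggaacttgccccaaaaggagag

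Both strands of the 250 bases before each start were searched for 4 motifs. In the table the starts of Csf1r and Csf2 fall on an ATG, so for these genes the distances below may be counted from a start codon, and the window may hold untranslated sequence. The core GAGGAA was found in the windows of all 4 genes, against 23.3% of the 33469 windows in the table. It lay with its first base 41 bases before the start in Csf2ra, 160 in Csf3r, 77 in Csf2, and 229 and 95 in Csf1r. It therefore stood before 2 detected genes, Csf1r and Csf2ra, and before 2 undetected ones, Csf2 and Csf3r. GAGATTCC was found in Csf2 alone of the 4, with its first base 139 bases before the start, and in 0.720% of all windows. The AP-1 site TGANTCA was in none of the 4 windows and in 6.34% of all. The same held for the TATA box, searched as the letters TATAAA, which 12.9% of all windows contained. None of these motifs overlapped another in the 4 windows. A match of letters says nothing on whether a factor was bound.

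Csf3, the G-CSF gene, was the 1 ligand of the 3 that was detected. Its processed signal, the spot intensity after the scanner software's background handling, was 356, 386, 556 and 280 on replicates 1 to 4. All 4 values were between 49.2 and 96.1 times the 95th percentile of the negative control spots on the same array. Replicate 3 was highest and replicate 4 lowest. Each array was then scaled to its own 75th percentile, which was 878, 932, 1237 and 831 on replicates 1 to 4, so the brightest array was also replicate 3. On that scale, where 0 is the 75th percentile and values are log2, Csf3 was at -1.30, -1.27, -1.15 and -1.57, a mean of -1.32 ± 0.18 (SD, n = 4). The range between replicates was 1.99-fold before scaling and 1.33-fold after it. The SD was close to the 0.16 given for genes of like signal (adjusted p = 0.995, limma variance test). That value comes from limma, which fits each gene by itself and pools the spread over all tested genes.

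Csf2, which encodes GM-CSF, was not detected. Its processed signal was 6.73, 16.6, 4.91 and 5.98 on replicates 1 to 4, and no array called it well above background. The negative controls had a 95th percentile between 5.18 and 5.79, so replicate 2 lay 2.89 times above that limit and replicate 3 below it, at 0.848 times. By the looser flag the spot passed on 3 of 4 arrays, with replicate 3 the exception.

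Csf1, the gene of macrophage CSF, had 2 probes, and neither was well above background on an array where its spot was usable. The probe for the curated transcript (NM_023981) had a processed signal of 3.94, 6.30 and 3.70 on replicates 1, 3 and 4. On replicate 2 the same spot read 49070 and carried the software's flag for uneven pixels, so it was left out. The second probe (XM_008761429, a predicted transcript) read 12.7 on replicate 2, with 4.69, 13.1 and 4.50 on replicates 1, 3 and 4. Replicate 2 was therefore no exception by that probe, which lay above the 95th percentile of the negative controls on replicates 2 and 3 (2.22 and 2.27 times) and below it on replicates 1 and 4.

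The flagged Csf1 spot sat in a run of bright spots on replicate 2. Within 3 rows and 3 columns of it, 3 other spots of the 49 in the window were more than 3 (log2) brighter on replicate 2 than on the brightest of the other arrays. They lay in the same column, in the row before it and in the 2 rows after it, and belonged to probes with no gene name here. The spot in the row before also carried an outlier flag, with a signal of 326 against 24.3 to 37.2 on the other arrays. The spots in the rows after carried none, with signals of 58717 and 59768 against at most 34.9 and 4.15 elsewhere. The part of this run in the Csf1 value was not tested.

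Csf1r, the receptor for CSF1, was detected with a processed signal of 398, 555, 652 and 398 on replicates 1 to 4. All of these were at least 69.9 times the 95th percentile of the negative controls. On the scaled log2 level it was at -1.14, -0.75, -0.92 and -1.06, a mean of -0.97 ± 0.17 (SD, n = 4). Replicate 2 was highest after scaling and replicate 3 before it, and the range between replicates was 1.64-fold before scaling and 1.32-fold after. The SD was close to the 0.15 that the fit gives for genes of like signal (adjusted p = 0.995, limma variance test).

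Csf2ra, the chain that binds GM-CSF, had a processed signal of 1577, 2081, 2161 and 1373 on replicates 1 to 4, from 241 to 373 times the 95th percentile of the negative controls. Its scaled log2 level was 0.84, 1.16, 0.81 and 0.72, a mean of 0.88 ± 0.19 (SD, n = 4). Replicate 2 stood above the other 3, which lay close together. The SD without replicate 2 was 0.06, the lowest SD of Csf2ra over the alternatives. With all arrays the SD lay above 85.5% of the 200 genes nearest to it in mean level, and it did not pass the test (adjusted p = 0.995, limma variance test; unadjusted p = 0.165).

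Csf2rb, the signalling chain shared with the receptors for interleukins 3 and 5, was detected close to the limit. Its processed signal was 30.8, 34.1, 38.9 and 33.1 on replicates 1 to 4, which was 5.80 to 6.71 times the 95th percentile of the negative controls. Its scaled log2 level was -4.83, -4.77, -4.99 and -4.65, a mean of -4.81 ± 0.14 (SD, n = 4). Replicate 3 was highest before scaling and lowest after it. Of the 200 genes nearest in mean level, 10.5% had a smaller SD (adjusted p = 0.995, limma variance test).

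Csf3r, the G-CSF receptor, was not detected. Its processed signal was 13.6 and 14.8 on replicates 1 and 2 and 4.23 and 3.81 on replicates 3 and 4. The first pair lay 2.61 and 2.58 times above the 95th percentile of the negative controls and passed the looser flag, and the second pair lay below it. On none of the 4 was the spot called well above background. The raw spot brightness minus local background was 27 and 28.5 on replicates 1 and 2 and 11 and 17 on replicates 3 and 4. By this measure the highest negative control was at 26, 23.5, 18.5 and 21 on replicates 1 to 4. Csf3r thus lay above every usable negative control on replicates 1 and 2 and not on replicates 3 and 4. This was not particular to Csf3r among the undetected members. Csf2 lay above them all on replicates 2 and 4 (35.5 and 23). The second Csf1 probe did so on replicates 2 and 3 (27 and 22.5), and the Csf1 probe for the curated transcript on replicate 3 (26).

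Replicate 2 was above the gene's own mean for all 4 detected members, by 0.04 for Csf2rb and 0.05 for Csf3, and no array was below the mean for all 4. Csf1r and Csf2ra were highest on replicate 2 after scaling, by 0.22 and 0.28 above their own means, Csf3 on replicate 3 (0.17) and Csf2rb on replicate 4 (0.16). Csf2ra and Csf3 were lowest on replicate 4, Csf1r on replicate 1 and Csf2rb on replicate 3. None of the 4 differed between replicates beyond genes of like signal at an adjusted p of 0.05. The same test called 0.237% of the 8452 genes tested (20 genes), and its unadjusted p was under 0.05 for 0 of the 4 members and for 532 genes. The count of members called was also 0 under each alternative. Over all genes, limma called 0.0473% without the trend, 0.496% with flagged spots kept, 0.477% with no filter on dim probes, 0.674% after normexp and 0.106% with a prior that was not robust. With each gene's own robust prior degrees of freedom it called 0 genes (314 at an unadjusted p under 0.05). Without replicate 1, 2 or 3 the share was 0.603%, 0.745% and 0.0355%. A p that misses the threshold does not show that the replicates were alike.

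**Figure D2:**
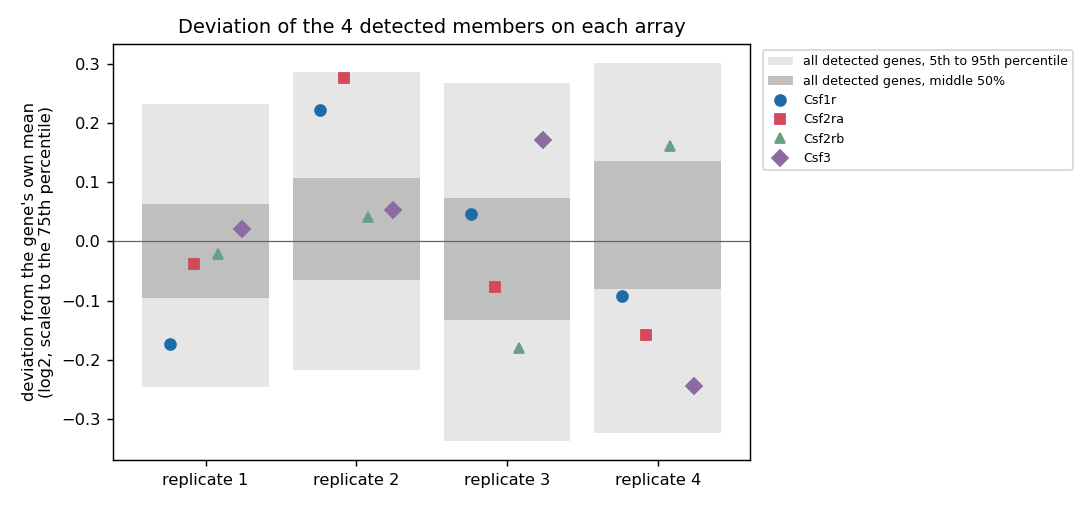
Deviation of Csf1r, Csf2ra, Csf2rb and Csf3 from their own mean on each array (log2, after scaling to the 75th percentile); dark grey is the middle 50% and light grey the 5th to 95th percentile of all tested genes. The highest array is replicate 2 for Csf1r (0.22) and Csf2ra (0.28), replicate 3 for Csf3 (0.17) and replicate 4 for Csf2rb (0.16), and all 16 points lie within the light band.

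**Figure D3:**
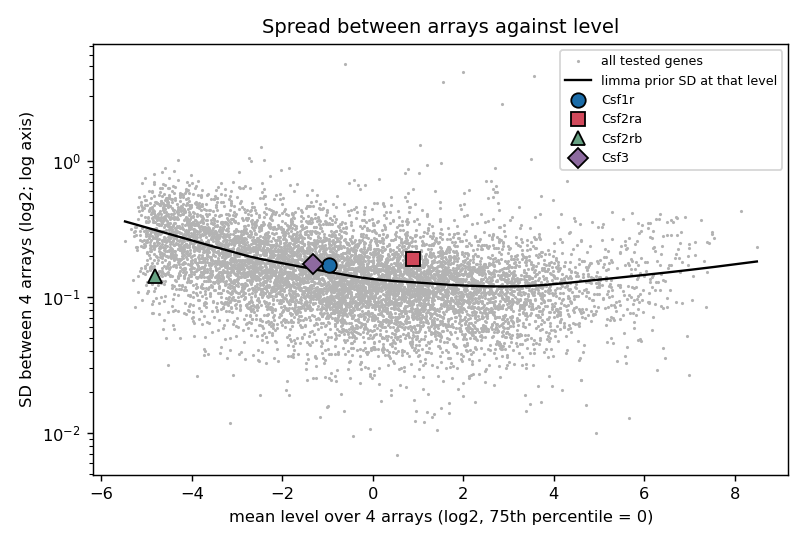
SD between the 4 arrays (log2, log axis) against the mean level (log2, 75th percentile = 0) for 8452 genes, with the SD that limma gives for each level as a line. Csf1r (0.17) and Csf3 (0.18) lie near the line, Csf2ra (0.19) above it and Csf2rb (0.14) below it.

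Markers of macrophages and of other cell types that make or answer to CSFs were read beside the 51% of all named genes that were detected. The lists are short, and 2 of 4, in the alveolar macrophage and endothelial lists, is near that share. All 8 markers of macrophages passed on 4 arrays. They included Cd68, found in lysosomes (5.07 ± 0.26 scaled log2 level, SD, n = 4), Mrc1, the mannose receptor (0.32 ± 0.16), Adgre1, the F4/80 antigen (-3.96 ± 0.23), and Lyz2, lysozyme (7.09 ± 0.14). Of the alveolar macrophage markers with a named probe, 2 of 4 were detected (Pparg and Fabp4), and Marco and Car4 were not. None of 5 neutrophil markers was detected (S100a8, S100a9, Elane, Cxcr2 and Fpr1), nor any of 5 epithelial ones (Epcam, Cdh1, Sftpc, Scgb1a1 and Krt18; 1 of these was detected under the looser flag). The 5 neutrophil markers also belong to the longer list of neutrophil genes described further on, in which 5 other genes were detected. Of the T cell markers 1 of 5 was detected (Lck, -3.68 ± 0.08), and Cd3d passed on 2 arrays while Cd3e, Cd3g and Cd2 passed on none. Of the fibroblast markers 1 of 5 was detected (Dcn, 0.10 ± 0.24), without Col1a1, Col1a2, Pdgfra or Thy1. Of the mast cell markers 1 of 4 was detected (Hdc, -4.63 ± 0.36, by 1 of 2 probes), without Cpa3, Ms4a2 or Kit. Of the endothelial markers 2 of 4 were (Pecam1, -1.04 ± 0.12, and Cdh5, -4.52 ± 0.63), without Kdr or Tek.

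Around the CSF genes, 12 lists of related genes were read the same way. Of 157 genes in them with a named probe, each counted once, 117 (74.5%) were detected, 5 partly and 35 not, beside 51% of all named genes. The reason for the difference was not tested. None of the 117 passed the variance test (smallest adjusted p = 0.230, Mmp12, limma; 17 had an unadjusted p under 0.05), and their median SD was 0.15 beside 0.14 over all tested genes. Levels in the next paragraphs are means of the scaled log2 value ± SD (n = 4), for the brightest probe of a gene.

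**Figure D4:**
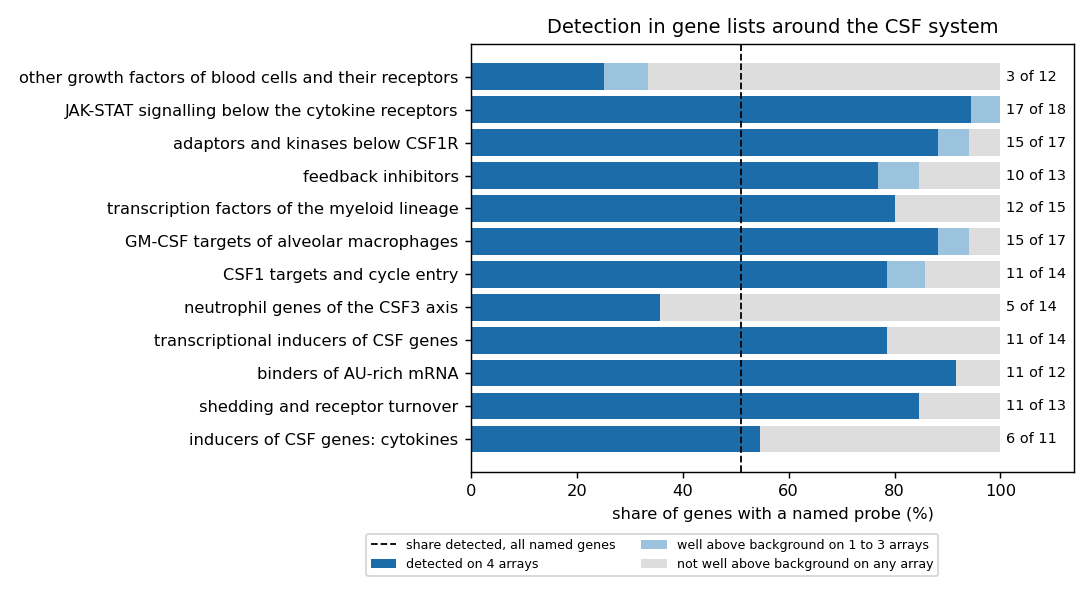
Share of genes (%) in each of 12 lists around the CSF system that were detected on 4 arrays, passed on 1 to 3 arrays or passed on none, with the count detected at the right; the dashed line is the 51% of all named genes that were detected. Other growth factors (3 of 12) and neutrophil genes (5 of 14) lie below the line and the other 10 lists above it.

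Few other growth factors of blood cells and few of their receptors were detected, 3 of 12. They were Il3ra, which pairs with CSF2RB to bind interleukin 3 (0.00, 0.23, -0.21 and -0.03 on replicates 1 to 4), Flt3lg, the FLT3 ligand (-2.96 ± 0.20, by 2 of 3 probes), and Epor, the erythropoietin receptor (-4.27 ± 0.22). Il34, which encodes the other ligand of CSF1R, was well above background on 3 arrays, at -5.34, -5.24, -4.94 and -5.24 on replicates 1 to 4, and so counted as partly detected. Il3, Il5 and Il5ra were not detected on any array. Csf2rb was thus detected with Csf2ra and Il3ra, which are its partners for GM-CSF and interleukin 3, and without Il5ra, its partner for interleukin 5.

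The signalling genes below the receptors were nearly all detected. The JAK-STAT list and the CSF1R list have 5 genes in common, so their counts overlap. In the JAK-STAT list 17 of 18 were, including Jak2, the kinase bound to CSF2RB (-2.01 ± 0.12), Jak1 (3.36 ± 0.07), Tyk2 (-2.33 ± 0.24), and Stat5a, the main transcription factor of GM-CSF signalling (2.39 ± 0.06). Pik3cd was the exception, with 1 array. Of the adaptors and kinases below CSF1R, 15 of 17 were detected, including Tyrobp, the adaptor DAP12 (5.77 ± 0.09), Grb2 (3.15 ± 0.14), Pik3r1 (-2.11 ± 0.04) and Plcg2 (-0.06 ± 0.22), while Pik3cd, also in this list, passed on 1 array and the kinase gene Src on none.

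Of 13 feedback inhibitors 10 were detected. Cish, which STAT5 induces, was at -0.50 ± 0.22, Socs3 at 1.07 ± 0.22, Cblb, a ubiquitin ligase, at 0.54 ± 0.33, and Ptpn6, the phosphatase SHP-1, at 6.50 ± 0.08. Socs2 and Spry2 were not detected, and Socs1 passed on 1 array, replicate 2, where it was at -4.21, with -6.09, -7.92 and -7.33 on replicates 1, 3 and 4.

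Of 15 transcription factors of the myeloid lineage 12 were detected. Spi1, which encodes PU.1, was at 1.14 ± 0.10, Cebpb at 5.10 ± 0.10, Cebpe at -0.27 ± 0.13 and Runx1 at 3.44 ± 0.14. Cebpa, Irf8 and Gfi1 were not detected. Cebpa is known for CSF3R expression in granulocyte precursors, and both Cebpa and Csf3r were undetected here, Cebpa by both of its probes. Of all named genes 42.6% passed on no array, and a link between Cebpa and Csf3r was not tested.

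Of 17 genes that GM-CSF is known to raise or maintain in alveolar macrophages, 15 were detected. They included Pparg (4.10 ± 0.17), Fabp4, a fatty acid binding protein (1.32 ± 0.18), Cd36, a lipid scavenger receptor (4.58 ± 0.35), and Abcg1, a cholesterol exporter (6.10 ± 0.11). Socs2 was not detected and Ccl17 passed on 1 array. Of 14 genes of CSF1 response and cycle entry, 11 were detected, among them Ccnd1, cyclin D1 (1.83 ± 0.08), Ccnd2 (1.32 ± 0.33), Ccnd3 (-0.97 ± 0.12) and Myc (1.87 ± 0.17). Fos and Dusp1 were not, and Plau passed on 1 array. These transcripts have other inducers as well, and with 1 condition their relation to CSF signalling was not tested.

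The neutrophil genes that are known to accompany G-CSF signalling were mostly undetected, with 5 of 14 detected. The 5 were Camp, an antimicrobial peptide (-0.26 ± 0.23), Lcn2, lipocalin 2 (3.70 ± 0.41), Mmp9 (0.34 ± 0.17), Cebpe and Itgam (1.16 ± 0.09), and of these Cebpe and Itgam are also in other lists. S100a8, S100a9, Elane and Prtn3 passed on no array.

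Of 14 regulators known to induce CSF genes 11 were detected, with the NF-kB genes Nfkb1 (-0.08 ± 0.31), Rela (0.40 ± 0.13) and Nfkb2 (0.78 ± 0.23) and the AP-1 gene Jun (2.31 ± 0.35) among them, and Fos, Fosl1 and Nfatc2 were not. Of 11 cytokines listed as acting on CSF genes, whether up or down, 6 were detected. Among them were Il1b (4.46 ± 0.12), Il1a (3.59 ± 0.12), Tnf (2.67 ± 0.29) and Il33 (-4.40 ± 0.84). The undetected genes, Il6, Il17a, Ifng, Il4 and Il10, passed on no array. The mRNAs of CSF2 and CSF3 are known to carry AU-rich elements that speed their decay. Of 12 genes in the list of factors that bind such mRNA or act on it, 11 were detected, including Zfp36l1 (-0.46 ± 0.07), Zfp36l2 (2.56 ± 0.15), Elavl1, the stabilising protein HuR (3.32 ± 0.06), and Hnrnpd (-1.77 ± 0.41). Zfp36, which encodes the decay factor tristetraprolin, was not, by its 1 probe. Of 13 genes of shedding and receptor turnover 11 were detected, including Adam17, a protease that sheds CSF1R (-0.44 ± 0.14), Adam10 (-1.97 ± 0.28), Rhbdf2 (0.64 ± 0.36) and Furin (0.07 ± 0.21), and Rab5a and Nedd4 were not.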

How the data were processed

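RNA from 4 cultures was hybridised, per the labels' protocols, as Cy3-labelled cRNA to one-colour Agilent rat arrays. Per the file headers, the deposited values are linear intensities, 1 per spot, from Agilent Feature Extraction 11.0.1.1, 1 file per array, with no step between arrays; deposited flags of another kind (0 or 1) mark spots by detection (well above background; a looser one, positive and significant), saturation and outlying pixels. All 4 arrays lie on 1 slide, scanned on 1 day. Each array held 58717 gene spots (49.2% to 50.3% well above background, none saturated). The number of arrays, 4, limits the precision.

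Control spots were dropped, as were spots with an outlier flag (1.11% to 1.45%). Accessions were matched without versions to RefSeq's GRCr8 gene table: 21102 of 45598 probes (46.3%) matched 1 gene, 0 several and 24496 none. Processed signals were log2-transformed after division by each array's 75th percentile, with spots of a probe averaged. A probe counted on an array when over 50% of its usable spots did; a gene was detected when 1 probe counted on 4 arrays, and partly when on fewer. The brightest probe stood for a gene. Variation between arrays was tested with limma 3.58.1 (R 4.3.3): each gene's residual variance against the eBayes prior for its level (trend, robust), upper-tail F test, prior degrees of freedom of the bulk of genes (8.11), Benjamini-Hochberg over 8452 genes, threshold 0.05. The test was tested on simulated data, and the prior degrees of freedom of the bulk were taken after each gene's own robust value failed that check; the closing section gives the count with the latter. Python 3.11.15, numpy 2.4.6, pandas 2.3.3 and matplotlib 3.10.9 served the rest.

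Within each list the first 4 detected and first 4 undetected genes in written order are named, or all where there are 5 or fewer. Members and lists were chosen with earlier results of these data known. No gene is named for a pattern like a member's, since 4 arrays give no correlation. Probe and protein sequences were not used here. Alternatives covered detection rules, scaling, background, filter, probe choice, variance prior, flags and each replicate. Whether the replicates came from separate cultures rests on the series design text.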

Additional observations from a re-analysis of the deposited data

Results flagged for a closer look

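In 3 of the sets of 4 values examined (8 probes of the CSF and receptor genes and 56 other genes named above), the highest or lowest array stood apart by Dixon's criterion, in which the gap to the next array divided by the whole range exceeds the 95% critical value. Chance gives about 1 in 20, and 3 among these 8 probes and 56 genes is near that rate. That count includes the flagged Csf1 spot, which the main results leave out. For the Csf1 probe of the curated transcript, with the flagged spot kept, replicate 2 stood above the others with a ratio of 0.986. For Pparg, replicate 4 was at 4.35 and the others between 3.98 and 4.05 (scaled log2 level), a ratio of 0.831. For Lyz2, replicate 3 was at 6.88 and the others between 7.13 and 7.17, a ratio of 0.860.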

How the results depend on the processing

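Over the 9 alternatives for detection, 4 members were detected each time, by name Csf1r, Csf2ra, Csf2rb and Csf3. With the positive and significant flag, or with the 95th percentile of the negative controls as the limit, Csf1, Csf2 and Csf3r each became partly detected, and 60.4% and 60.5% of all named genes were detected. With flagged spots kept, a choice made after seeing the data, Csf1 became partly detected through replicate 2. In the list of other growth factors and receptors, 5 genes were detected in place of 3 under the looser flag, and 5 likewise under the negative controls; the cause was not tested. Under both of these rules 2 T cell markers were detected in place of 1 and 1 epithelial marker in place of 0. Over the 13 alternatives of the variance test, 0 members passed, with adjusted p from 0.950 to 0.999, while the count over all genes moved from 20 to 3 without replicate 3, 10 without replicate 4, 51 without replicate 1 and 63 without replicate 2. It was 4 without trend, 10 with quantile normalization, 29 with no scaling, 42 with flagged spots kept, 57 with normexp and 79 with no filter on dim probes. With 2 choices added after seeing the data, limma called 9 genes with a prior that was not robust and 0 with each gene's own robust prior degrees of freedom (314 at an unadjusted p under 0.05), so the 20 calls over all genes depend on that choice, while the adjusted p of the 4 members stayed at 0.992 or above. Leaving out 1 replicate moved the mean level of Csf1r between -1.04 and -0.91, of Csf2ra between 0.79 and 0.94, of Csf2rb between -4.87 and -4.75 and of Csf3 between -1.38 and -1.24. With normexp and its offset the level of Csf2rb was -3.36 in place of -4.81. No paired analysis was possible because the series holds 1 group. Signals near background limit what can be said of Csf1, Csf2 and Csf3r.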
